A study of Homo sapiens with 9 samples.

Results

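The genes described here were higher in T47D-PA6 cells alone, that is, higher in T47D-PA6 than in both other lines, whose means lay close to each other. They were chosen by measured values, in the same 9 arrays that are described. Each gene name was read through 1 probe (the one with the highest mean over the 9 arrays) among probes that were well above background on all 3 T47D-PA6 arrays, and its mean log2 signal was taken per line. A member had to exceed T47D-VC1 and T47D-PA5 by at least 1 on the log2 scale, with T47D-PA5 minus T47D-VC1 between -0.5 and 0.5. Single arrays of T47D-PA5 and T47D-VC1 could lie further apart than their means. Of 43317 gene names on the array, 19056 had such a probe, 174 met the 4 limits, and 14 of these were left out by name (the rule excludes ADCY1, BDKRB1, BDKRB2, INHBA, CD36, PTGER2, CXCR4, EGLN3 and names of the COL, KRT, KCN, ITG, LAM, WNT, TRIM, LINC and AS1 kinds), which left 160. The names used were those on the array, so C8orf31, C17orf51 and LOC102724539, now LY6S-AS1, LINC02693 and LINC01714, stayed in. In 8 of the 160, membership rested on a single spot that the image software had marked as an outlier, 7 of them on the first T47D-PA6 array and SYT12 on the first T47D-PA5 array. Besides SYT12 these were POM121L12, KLHL31, CACNA2D2 and 4 with transcript, clone or probe names. The values below are of the other 152 genes, 0.798% of those considered. All 3 differences between the lines chose the members, so those differences are given as a description, no p-value on them is given for a member, and counts of members that passed a test on them support nothing.

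T47D is an established line of human luminal breast cancer cells. T47D-VC1 cells carried the empty pTARGET vector, T47D-PA6 cells expressed full-length PTH-AS, a long noncoding RNA encoded downstream of the parathyroid hormone gene, and T47D-PA5 cells expressed an incomplete PTH-AS that lacks part of its 5′ side. All 3 lines were stable transfectants established by G418 selection, and each was 1 selected clone. A difference between clones and an effect of the insert therefore cannot be told apart. For each line 3 arrays were run (n = 3), and nothing states that they came from separate cultures. No gene name on the array began with PTH-AS, so the inserts themselves were not measured by name. Each of the 12 markers of luminal breast epithelium read well above background on each of the 9 arrays, and their summed log2 signal ran from 19.43 to 19.57 in T47D-VC1, from 19.47 to 19.51 in T47D-PA5 and from 19.43 to 19.48 in T47D-PA6. Of 8 fibroblast markers 2 were so on each array and 5, including COL1A2, DCN and LUM, on none, and their summed log2 signal ran from 8.80 to 9.03 in T47D-VC1, from 9.01 to 9.81 in T47D-PA5 and from 8.25 to 8.57 in T47D-PA6. Of 7 leukocyte markers 4 were so on each array and CD3E on none, with sums from 8.99 to 9.20, from 8.85 to 9.80 and from 9.35 to 9.74, so T47D-PA6 was above T47D-VC1 and within the range of T47D-PA5. Of 6 endothelial markers 2 were so on each array and PECAM1, KDR, TEK and CLDN5 on none, with sums from 5.87 to 6.37, from 5.78 to 6.30 and from 5.76 to 5.97. Of 8 basal or mesenchymal markers none read well above background on every array, and their summed log2 signal ran from 5.65 to 5.69 in T47D-VC1, from 6.02 to 6.45 in T47D-PA5 and from 6.81 to 7.14 in T47D-PA6. The leukocyte sum did not follow the members, since T47D-PA6 and T47D-PA5 overlapped in it. The basal or mesenchymal sum was largest on the T47D-PA6 arrays, but there T47D-PA5 also lay apart from T47D-VC1. The part of either marker set in the members' values was not tested. The first replicate of every line was scanned in an earlier run, on a slide that held these 3 arrays, and between 44.0% and 48.0% of probes were well above background on each array.

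The members do not form 1 pathway. Several are enzymes of eicosanoid synthesis, which turns arachidonic acid into prostaglandins, prostacyclin and leukotrienes. Others are metallothioneins, small cysteine-rich proteins that bind zinc and copper and whose genes lie in a cluster and answer to metals and stress. A further group belongs to the TGF-beta and BMP pathways, in which receptor kinases activate SMAD factors and ID proteins act as targets that hold back other transcription factors. A few belong to interferon responses, in which RNA sensors and interferon receptors switch on antiviral and antigen-presentation genes.

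Each signal was read through a 60-base probe, and the probes of members that the results turn on are shown because they fix which transcript stretch was measured. For RTN1 the probe crosses an exon border (hg19, chr14:60069808-60069955, minus strand). For WFDC2 it lies at chr20:44108669-44108728, for KYNU at chr2:143715219-143715278 and for B2M at chr15:45007773-45007832, all on the plus strand. All letters are in lower case because nothing in them is singled out.
RTN1: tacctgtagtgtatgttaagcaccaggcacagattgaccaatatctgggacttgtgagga
WFDC2: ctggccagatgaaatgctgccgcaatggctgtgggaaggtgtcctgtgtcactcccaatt
KYNU: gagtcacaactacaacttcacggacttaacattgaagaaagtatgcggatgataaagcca
B2M: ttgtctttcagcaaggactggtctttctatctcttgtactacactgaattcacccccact

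The neighbouring PAGE2 and PAGE2B genes of the X chromosome are near copies, so their probes are shown to tell how far 1 gene's signal could come from the other. The PAGE2 probe spans an intron (chrX:55117033-55117813) and the PAGE2B probe does not (chrX:55103897-55103956). The longest stretch that the 2 probes have in common is 7 bases, so they read different parts of the transcripts. Whether either probe also binds the other gene's transcript was not tested.
PAGE2: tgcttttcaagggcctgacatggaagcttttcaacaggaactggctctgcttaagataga
PAGE2B: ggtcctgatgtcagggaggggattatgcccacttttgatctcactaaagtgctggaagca

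T47D-PA6 exceeded T47D-VC1 by a median of 1.55 on the log2 scale over the 152 members, with a highest value of 4.81, and exceeded T47D-PA5 by a median of 1.56, with a highest value of 4.42. Over all 19056 genes the medians were -0.02 and 0.01. T47D-PA5 minus T47D-VC1 had a median of 0.01 over the members. Most members sat near the limits: the smaller of the 2 differences was between 1 and 1.5 in 91 genes, between 1.5 and 2 in 26, between 2 and 3 in 25 and 3 or more in 10. On every T47D-PA6 array 127 members were brighter than on all 6 other arrays, a pattern that 7.07% of all genes considered showed, and in the other 25 the arrays overlapped. The rule fixed this direction, so nothing is read from that count. In the fit across all 20099 genes tested with limma, 70.4% of the 152 passed with T47D-PA6 above T47D-VC1 (4.69% of all genes) and 111 of the 152 with T47D-PA6 above T47D-PA5 (3.65% of all genes), which the rule likewise fixed. The spread between arrays of a line was wider for the members than for other genes, with a median SD of 0.41 on the log2 scale in T47D-PA6, against 0.17 over all genes considered. On all 9 arrays 99 members were well above background, 35 were on some of the T47D-VC1 and T47D-PA5 arrays, and 18 were on none of those 6.

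**Figure D1:**
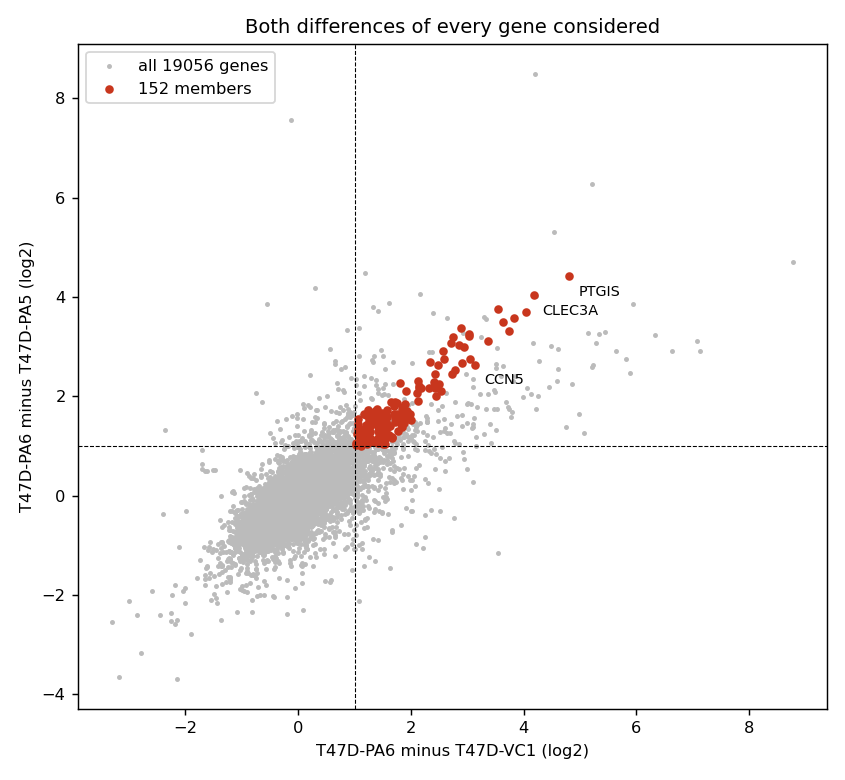
T47D-PA6 minus T47D-VC1 (x axis) and T47D-PA6 minus T47D-PA5 (y axis), both in log2 units of the mean per line over 3 arrays. Gray points are all 19056 genes considered, red points the 152 members, and dashed lines the limits of 1. The members reach 4.81 and 4.42 at PTGIS, and gray points beyond both limits are genes whose T47D-PA5 and T47D-VC1 means lay more than 0.5 apart, that were left out by name or that rested on an outlier-marked spot.

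At the lower limit against T47D-VC1, C4B, a complement component, lay just inside at 1.03. At the limit against T47D-PA5, ANKK1 lay just inside at 1.003 and BEX2 and PSMD14-DT just outside, both at 0.99. HCP5, a noncoding RNA gene of the MHC region, had T47D-PA5 above T47D-VC1 by 0.4996 and CCN5 by 0.4966, both just inside the upper limit, and LY6E-DT lay just outside it at 0.5184. PAGE2, with a T47D-PA5 minus T47D-VC1 of -0.4924, was just inside the lower limit on that difference, where FOSB at -0.5031 and ENHO at -0.5183 fell just outside. The other genes next to a limit carry transcript or clone names.

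Signals are given below in the order of replicates 1, 2 and 3, as quantile-normalized intensities of 1 probe, which can be set against each other between arrays but not between genes. A fold is 2 raised to the difference of the mean log2 signals. Where no array of a line read a probe well above background, only a bound can be given, and then the T47D-PA6 mean was set against the lowest signal that counted as well above background on each array of that line, or against the probe's own signal where that was higher, written as "at least".

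The widest margin belonged to PTGIS, prostacyclin synthase. Its signals were 2.95, 2.98 and 3.004 in T47D-VC1, 2.94, 6.79 and 2.99 in T47D-PA5 and 21.3, 162 and 169 in T47D-PA6. Both later T47D-PA6 arrays were far above the first, and the first was still above all 6 arrays of the other lines. PTGIS had a mean T47D-PA6 log2 signal of 6.38 ± 1.71 (SD, n = 3) and was at least 6.64-fold above T47D-VC1 and at least 6.39-fold above T47D-PA5. ALOX5, which makes the precursor of leukotrienes, had signals of 4.80, 5.65 and 4.16 in T47D-VC1, 3.25, 3.11 and 7.20 in T47D-PA5 and 48.7, 68.3 and 54.3 in T47D-PA6. Here the 3 T47D-PA6 arrays lay close together, at a mean log2 signal of 5.82 ± 0.25 (SD, n = 3), and none of the other 6 was well above background, which gave at least 4.50-fold over T47D-VC1 and at least 4.32-fold over T47D-PA5. PLA2G1B, a secreted phospholipase that releases fatty acids from membranes, had signals of 25.9, 11.7 and 9.69 in T47D-VC1, 17.9, 15.9 and 11.6 in T47D-PA5 and 47.9, 43.4 and 48.7 in T47D-PA6, with no overlap between T47D-PA6 and the others. A list of eicosanoid synthesis enzymes, drawn up after these values were seen, held 20 further genes that were tested, of which 2 passed as higher and 3 as lower than the T47D-VC1 level by limma with Benjamini-Hochberg adjustment (4.69% and 5.33% of all genes), and 1 as higher and 2 as lower than in T47D-PA5 (3.65% and 6.06% of all genes). PLAAT3, a phospholipase, was the 1 that passed as higher in both comparisons, by 0.69 and 0.76 on the log2 scale (adjusted p = 0.0129 and 0.00915 by limma).

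Of the 20 genes with the widest margin, CLEC3A, WFDC2, CCN5, SPARC and LCN2 encode secreted or matrix proteins. CLEC3A, a C-type lectin of cartilage, had signals of 2.86, 13.1 and 18.2 in T47D-VC1, 17.5, 8.73 and 6.02 in T47D-PA5 and 350.4, 106 and 109 in T47D-PA6, and its first T47D-PA6 array was the brightest, the opposite of PTGIS. It was at least 11.6-fold above T47D-PA5, and no fold is given against T47D-VC1, where 1 of 3 arrays measured it. WFDC2, a secreted protein known as a serum marker of ovarian cancer, was detected on every array, at 51.2, 59.1 and 45.8 in T47D-VC1, 43.0, 63.8 and 44.8 in T47D-PA5 and 306, 442 and 466 in T47D-PA6, which made it 7.69-fold and 8.01-fold higher than in T47D-VC1 and T47D-PA5. CCN5, named WISP2 on the array, is a secreted regulator of growth that estrogen induces in breast cells. It had signals of 586, 534 and 509 in T47D-VC1, 443, 988 and 1022 in T47D-PA5 and 1894, 7352 and 7727 in T47D-PA6, 8.78-fold over T47D-VC1 and 6.22-fold over T47D-PA5. SPARC, a matrix glycoprotein that binds collagen, had signals of 40.9, 103 and 94.9 in T47D-PA6 and was not well above background on the other 6 arrays, which made it at least 5.85-fold above T47D-VC1 and at least 5.62-fold above T47D-PA5.

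LCN2, a lipocalin that carries iron-binding siderophores, did not separate the lines. Its signals were 15.8, 7.05 and 9.94 in T47D-VC1, 64.2, 2.54 and 3.19 in T47D-PA5 and 35.8, 100.3 and 86.7 in T47D-PA6, so the first T47D-PA5 array was brighter than the first T47D-PA6 array. IGFBP7, a secreted protein that binds insulin-like growth factors, had signals of 159, 99.96 and 99.9 in T47D-VC1, 122, 81.3 and 78.7 in T47D-PA5 and 399, 682 and 759 in T47D-PA6 and no overlap. The inhibitor CST7, a cystatin that blocks cysteine proteases, was at 31.2, 24.4 and 26.9 in T47D-PA6 and not well above background elsewhere, at least 2.18-fold and 2.09-fold higher. ADAMTS10, a secreted metalloproteinase, ranged from 23.3 to 81.1 in the other 2 lines and from 89.0 to 129 in T47D-PA6. Of 92 further proteases and inhibitors tested, 10 were higher and 2 lower than the T47D-VC1 level, and 5 were higher and 6 lower than in T47D-PA5, with medians of 0.12 and 0.08 on the log2 scale beside -0.03 and -0.001 over all genes.

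Among intracellular proteins, RTN1, a reticulon that shapes the endoplasmic reticulum of neuroendocrine cells, had signals of 7.64, 3.68 and 6.43 in T47D-VC1, 6.02, 4.03 and 15.1 in T47D-PA5 and 226, 54.0 and 65.5 in T47D-PA6 through the probe shown above. The first T47D-PA6 array was again the brightest, and no array overlapped. RTN1 was at least 7.39-fold above T47D-VC1, and 1 of 3 T47D-PA5 arrays measured it, so no fold is given against that line. ARHGAP22, which switches off the GTPase Rac, had signals of 2.91, 11.3 and 8.77 in T47D-VC1, 13.4, 7.09 and 5.02 in T47D-PA5 and 42.2, 143 and 136 in T47D-PA6 and was at least 7.45-fold and 7.16-fold higher than in T47D-VC1 and T47D-PA5. CPVL, a carboxypeptidase, had signals of 5.86, 22.05 and 11.6 in T47D-VC1, 11.3, 19.2 and 17.1 in T47D-PA5 and 78.3, 212 and 217 in T47D-PA6. Its mean T47D-PA6 log2 signal was 7.26 ± 0.84 (SD, n = 3). ME3, the mitochondrial NADP-dependent malic enzyme, had signals of 43.9, 23.9 and 25.5 in T47D-VC1, 34.3, 35.5 and 36.6 in T47D-PA5 and 163, 215 and 248 in T47D-PA6, 6.88-fold and 5.80-fold higher, with T47D-PA6 arrays close together. LDHB, the lactate dehydrogenase subunit of oxidative tissues, had signals of 3.58, 37.1 and 32.9 in T47D-VC1, 17.2, 17.0 and 24.8 in T47D-PA5 and 51.7, 171 and 208 in T47D-PA6, and its first T47D-VC1 array stood well below the other 2.

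The cancer-testis antigens PAGE2 and PAGE2B are normally read in the male germ line. PAGE2B had signals of 6.23, 7.61 and 10.8 in T47D-VC1, 8.14, 9.36 and 8.79 in T47D-PA5 and 26.0, 199 and 187 in T47D-PA6. PAGE2 had signals of 5.34, 8.32 and 9.45 in T47D-VC1, 2.84, 9.60 and 5.53 in T47D-PA5 and 19.6, 94.1 and 92.8 in T47D-PA6. In both genes the first T47D-PA6 array was the lowest of the 3, and both exceeded all other arrays, with bounds of at least 7.87-fold and 7.56-fold for PAGE2B and at least 4.41-fold and 4.24-fold for PAGE2. Of 35 further cancer-testis genes tested, 4 were higher and 1 lower than in T47D-VC1, and 4 were higher and 3 lower than in T47D-PA5. EYA2, a phosphatase and cofactor of homeobox transcription factors, was at 25.2, 17.1 and 17.7 in T47D-PA6, at least 1.57-fold and 1.505-fold higher. SP5, a target of Wnt signaling, was at 27.3, 45.0 and 45.6 (at least 3.04-fold and 2.93-fold), and ESPNL, an espin-like actin-binding protein, at 15.6, 51.1 and 45.2 (at least 2.63-fold and 2.52-fold). SAMD12 was at 36.9, 66.4 and 47.3, the C8orf31 probe (now LY6S-AS1) at 25.2, 30.9 and 40.6 and PNMA2, a neuronal antigen of paraneoplastic disease, at 40.0, 119 and 127 in T47D-PA6, each above all 6 other arrays.

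**Figure D2:**
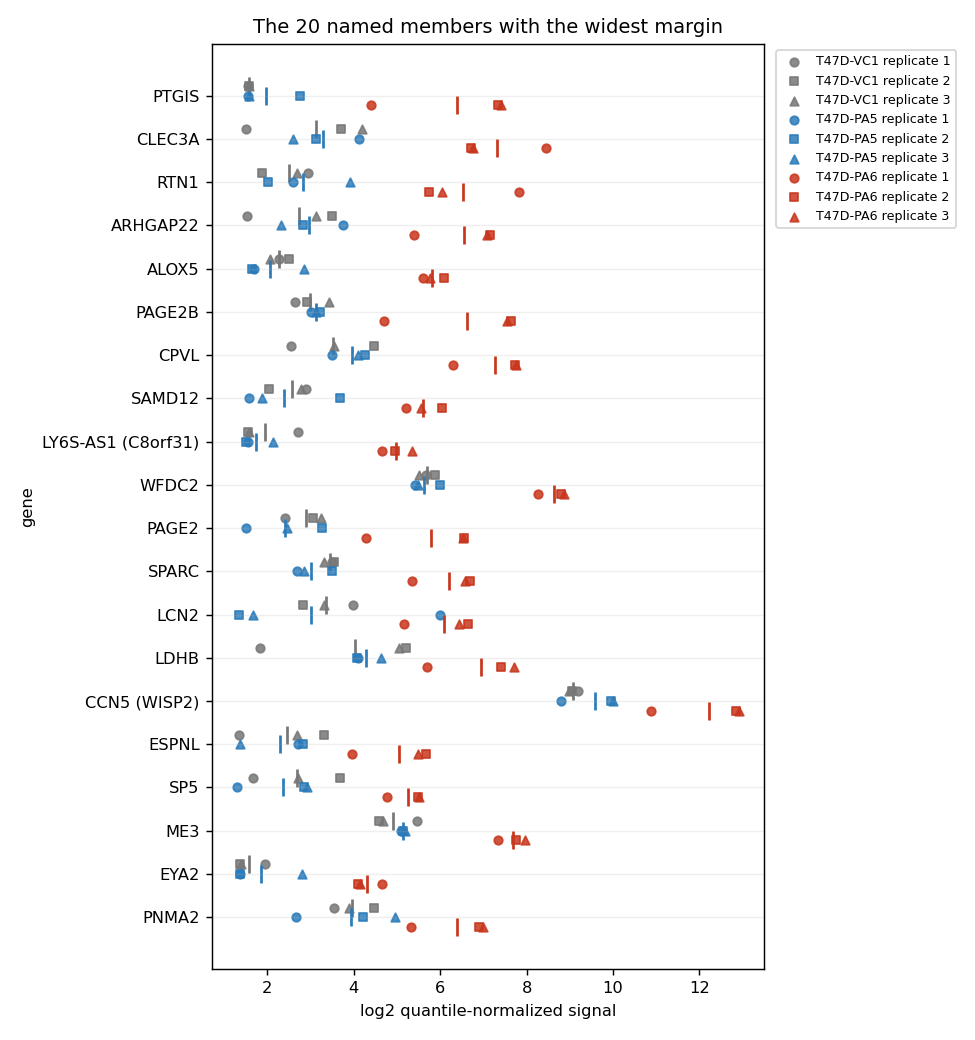
Log2 quantile-normalized signal (x axis) of the 20 members with a gene symbol and the widest margin, 1 row per gene, ordered by the smaller of the 2 differences. Each point is 1 array (circle, square and triangle for replicates 1, 2 and 3) and each bar the mean of 3 arrays per line. T47D-PA6 points lie to the right of the others in all rows but LCN2, where the first T47D-PA5 array lies among them, and the first T47D-PA6 array is the lowest of its line in most rows but the highest in CLEC3A, RTN1 and EYA2.

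Of the 10 metallothioneins with a probe well above background on all T47D-PA6 arrays, 8 were members: MT2A, MT1L, MT1E, MT1A, MT1B, MT1X, MT1HL1 and the MT1C pseudogene, the last listed by its transcript name. The group was noticed after the values were seen. MT2A, a widely expressed form, had signals of 13707, 30162 and 26061 in T47D-VC1, 26061, 22031 and 22948 in T47D-PA5 and 35405, 87753 and 87753 in T47D-PA6, 2.94-fold over T47D-VC1 and 2.75-fold over T47D-PA5. The later T47D-PA6 arrays of MT2A have 1 value because quantile normalization gives probes of equal rank the same signal. MT1E had signals of 681, 1686 and 1409 in T47D-VC1, 1498, 1310.4 and 1332 in T47D-PA5 and 2178, 6104 and 6666 in T47D-PA6. For MT1B they were 1528, 3696 and 3263 in T47D-VC1, 3282, 2919.7 and 2969 in T47D-PA5 and 4985, 13034 and 14399.5 in T47D-PA6. For MT1L they were 1647, 3597 and 2882 in T47D-VC1, 3497, 2699.5 and 2757 in T47D-PA5 and 5761, 12913 and 10108 in T47D-PA6. None of MT2A, MT1E, MT1B and MT1L overlapped between T47D-PA6 and the other lines. MT1X, at 125, 172 and 140.0 in T47D-VC1, 272, 132 and 134 in T47D-PA5 and 201, 472 and 479 in T47D-PA6, did overlap, since its first T47D-PA5 array was above its first T47D-PA6 array. MT1A and MT1HL1 also overlapped, each with 1 T47D-VC1 array above the first T47D-PA6 array, and their T47D-PA6 signals were 9083, 22420.3 and 24375 and 3792, 12382 and 13762. In all 8 genes the first T47D-PA6 array was the lowest of its line, and in all 8 the first T47D-VC1 array was the lowest of its own. The MT1X and MT1A differences over T47D-PA5 were -0.44 and 0.26 among first replicates and 1.84 and 1.74 among replicates 2 and 3. In the fit across all genes 5 of the 10 passed as higher than in T47D-VC1 and 3 as higher than in T47D-PA5, all of them members chosen on these values, so 3 and 5 of the 8 members did not pass. The other 2 did not pass either, as MT1F was 0.75 and 0.64 higher on the log2 scale (adjusted p = 0.148 and 0.221 by limma) and MT3, the brain form, 0.09 and 0.18 higher (adjusted p = 0.854 and 0.7).

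**Figure D3:**
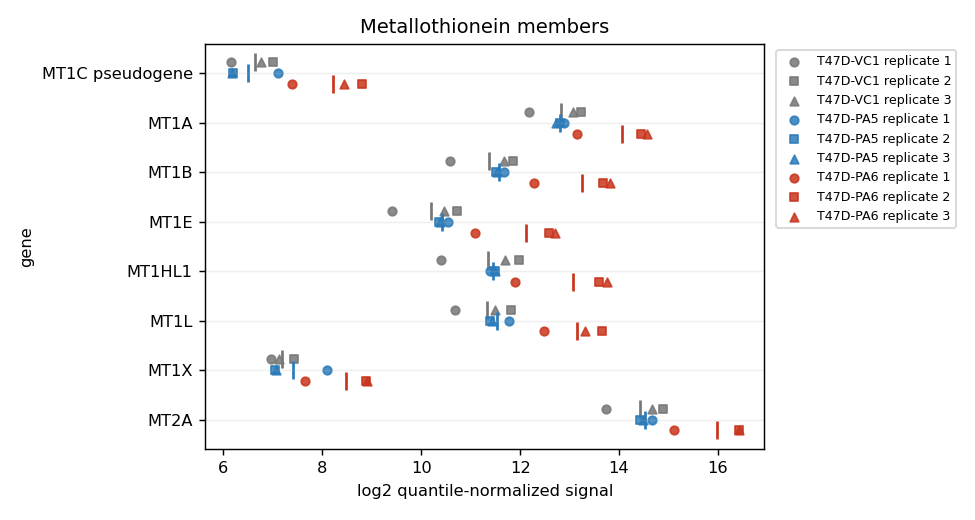
Log2 quantile-normalized signal (x axis) of the 8 metallothionein members, 1 row per gene. Each point is 1 array (circle, square and triangle for replicates 1, 2 and 3) and each bar the mean of 3 arrays per line. Replicates 2 and 3 of T47D-PA6 lie to the right of all other points in every row, and its replicate 1 lies near the T47D-PA5 and T47D-VC1 points.

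The metallothionein probes are not independent readings, because the genes are near copies. Among the 28 pairs of the 8 probes, the longest shared stretch ran from 4 to 27 bases with a median of 7. MT1A on chromosome 16 (hg19, chr16:56673205-56673808, across an intron) and MT1HL1 on chromosome 1 (hg19, chr1:237167555-237167614, minus strand) share the longest, shown in capitals, so 1 transcript could add to both signals. The MT1E and MT1B probes match at 49 of 60 bases without a gap.
MT1A: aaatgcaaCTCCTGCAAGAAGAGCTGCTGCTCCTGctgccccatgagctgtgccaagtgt
MT1HL1: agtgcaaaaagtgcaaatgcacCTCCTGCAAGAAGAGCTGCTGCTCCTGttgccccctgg

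Metallothionein promoters carry metal response elements, short sites of the zinc-sensing factor MTF1. The RefSeq promoter table (GRCh38.p14, 250 bases before to 50 after the start) held 3 of these genes, which are shown because they lie in 1 cluster and read alike. Capitals mark matches to TGCACNC or TGCGCNC on either strand, a core chosen after the values were seen: 8 in MT2A (chr16:56608334-56608633), 4 in MT1X (chr16:56682220-56682519) and 3 in MT1B (chr16:56651636-56651935), all on the plus strand of chromosome 16. At least 1 match was in 41.9% of members' promoters, 36.4% of those of genes considered and 29.6% of all 35116 promoters tabulated. At least 4 matches were in 1.71%, 0.782% and 0.601%, among members in MT2A and MT1X. A match is a string of letters and not a measured site.
MT2A: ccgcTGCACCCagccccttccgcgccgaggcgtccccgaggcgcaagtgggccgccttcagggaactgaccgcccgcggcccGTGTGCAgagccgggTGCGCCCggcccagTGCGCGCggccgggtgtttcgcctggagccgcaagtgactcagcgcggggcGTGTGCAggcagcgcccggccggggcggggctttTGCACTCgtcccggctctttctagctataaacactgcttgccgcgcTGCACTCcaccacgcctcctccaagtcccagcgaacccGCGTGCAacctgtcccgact
MT1X: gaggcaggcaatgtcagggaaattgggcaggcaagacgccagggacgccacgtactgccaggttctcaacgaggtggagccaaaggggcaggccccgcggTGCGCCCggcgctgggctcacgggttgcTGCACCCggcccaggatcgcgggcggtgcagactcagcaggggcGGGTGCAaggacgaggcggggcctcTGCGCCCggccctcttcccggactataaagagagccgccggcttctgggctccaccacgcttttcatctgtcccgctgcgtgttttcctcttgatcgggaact
MT1B: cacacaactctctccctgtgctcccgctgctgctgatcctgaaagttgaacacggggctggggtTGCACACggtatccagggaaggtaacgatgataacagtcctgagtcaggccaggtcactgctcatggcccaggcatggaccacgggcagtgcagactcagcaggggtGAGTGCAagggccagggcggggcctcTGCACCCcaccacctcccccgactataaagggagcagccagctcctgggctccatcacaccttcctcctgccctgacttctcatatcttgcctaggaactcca

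Members of the TGF-beta and BMP pathways were found at several levels. Among 16 listed TGF-beta target genes 4 were members: TGFBI, BAMBI, ID1 and ID3. TGFBI, a secreted adhesion protein named for its induction by TGF-beta, had signals of 56.2, 79.4 and 75.2 in T47D-VC1, 56.5, 64.2 and 62.2 in T47D-PA5 and 173, 311 and 335 in T47D-PA6, 3.77-fold and 4.31-fold higher. BAMBI is a pseudoreceptor that blocks TGF-beta and BMP receptors, and it had signals of 1864, 1296 and 1270.3 in T47D-VC1, 1336, 1258 and 1312 in T47D-PA5 and 3094, 4293 and 4299.9 in T47D-PA6. ID1, an inhibitor of basic helix-loop-helix factors and a target of BMP, had signals of 2732, 3559 and 3662 in T47D-VC1, 5175, 1792 and 1979.5 in T47D-PA5 and 7618, 8286 and 8363 in T47D-PA6. ID3, of the same family, had signals of 925, 1008 and 905 in T47D-VC1, 1622, 668 and 688 in T47D-PA5 and 2288, 2176 and 2290.2 in T47D-PA6. In T47D-PA5 both ID genes were more than 2-fold brighter on the first array than on the other 2, and in T47D-PA6 all 3 arrays lay close together, at mean log2 signals of 12.98 ± 0.07 and 11.14 ± 0.04 (SD, n = 3). TGFBR3, the coreceptor betaglycan, was at 247, 279 and 275 in T47D-PA6, with 175 on the first T47D-VC1 array and from 71.3 to 89.0 on the remaining 5. BMPER, a secreted BMP-binding protein, was at 28.2, 37.0 and 30.3 in T47D-PA6 and from 3.02 to 22.5 elsewhere. GDF15, a stress-induced ligand of the same superfamily, had signals of 11414, 4234 and 3919 in T47D-VC1, 6708, 4105 and 4375 in T47D-PA5 and 14956, 13995 and 13878 in T47D-PA6, and its first T47D-VC1 array came close to the T47D-PA6 arrays.

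The 12 listed TGF-beta target genes that are no members were less even. Against T47D-VC1, 3 passed as higher and 1 as lower by limma, with a median of 0.46 on the log2 scale, and against T47D-PA5 1 passed, as lower, with a median of 0.43. PMEPA1 was 1.69 higher than in T47D-VC1 (adjusted p = 0.0227), with T47D-PA5 itself 1.11 above T47D-VC1 (adjusted p = 0.179), and ID2 was 0.72 higher (adjusted p = 0.0353). The receptor TGFBR1 was 1.20 below T47D-VC1 (adjusted p = 0.0462) and 1.28 below T47D-PA5 (adjusted p = 0.0371 by limma), the opposite direction to the members. A list of BMP and TGF-beta modulators and ID genes, drawn up after the values were seen, held 27 tested genes that are no members. Against T47D-VC1, 3 of them passed as higher and 3 as lower, with a median of 0.20 on the log2 scale. Against T47D-PA5, 1 passed as higher and 2 as lower, with a median of -0.03.

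Of 93 interferon-stimulated genes considered 3 were members, 3.23%, beside 0.798% of all genes considered. RIGI, the cytosolic sensor of viral RNA, named DDX58 on the array, had signals of 1663, 869.6 and 871 in T47D-VC1, 1176, 1545 and 1516 in T47D-PA5 and 3380.1, 4059 and 4079 in T47D-PA6. IRF1, a transcription factor of interferon responses, had signals of 42.2, 38.1 and 37.5 in T47D-VC1, 38.4, 55.8 and 59.2 in T47D-PA5 and 75.3, 137 and 125 in T47D-PA6. B2M, the light chain of MHC class I, had signals of 20036, 21178 and 22069.6 in T47D-VC1, 19389, 33425 and 30271 in T47D-PA5 and 33713, 72976 and 72208 in T47D-PA6. In all 3 genes every T47D-PA6 array was above every other array, and both later T47D-PA5 arrays were above all T47D-VC1 arrays in IRF1 and B2M. The list as a whole was higher in T47D-PA6. Of the 90 that are no members, 79 passed against T47D-VC1 by limma and 61 against T47D-PA5, all as higher. The medians were 2.03 and 1.17 on the log2 scale, and 4.69% and 3.65% of all genes tested passed as higher. At an unadjusted p under 0.05, 88 of the 93 passed in either direction against T47D-VC1, as did 5336 of all 20099 genes tested. The 88 include the 3 members, which this difference helped to choose. T47D-PA5 was itself above T47D-VC1 in 28 of the 90 by limma with adjustment, with a median of 0.91, and in 275 of all genes tested. The limit on T47D-PA5 decided membership here. Of 53 listed genes that exceeded both lines by at least 1, the other 50 had T47D-PA5 above T47D-VC1 by more than 0.5. A second RIGI probe read T47D-PA5 0.91 above T47D-VC1 and a second HCP5 probe 1.48 above it, beyond the limit, so their membership depends on the probe.

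**Figure D4:**
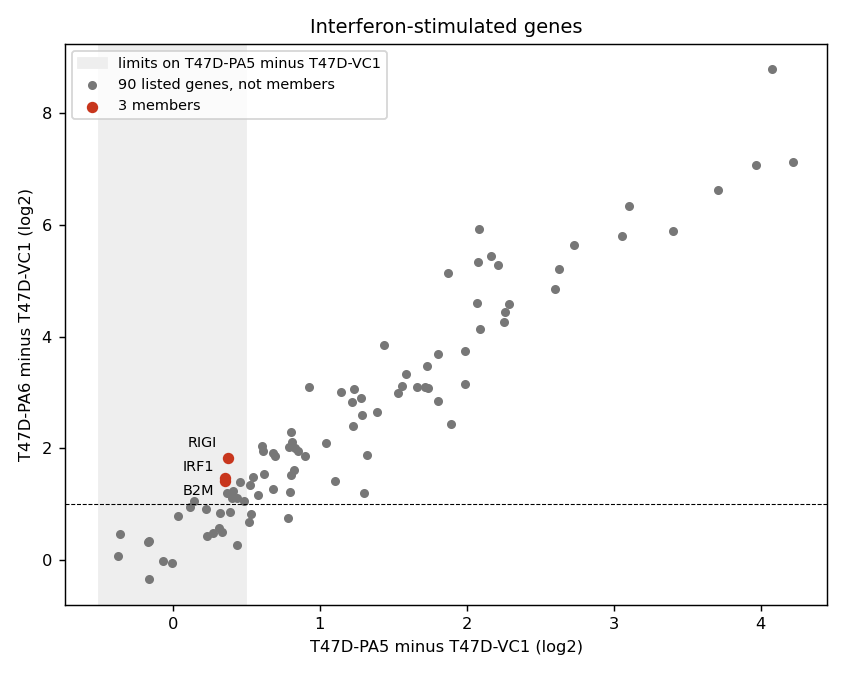
T47D-PA5 minus T47D-VC1 (x axis) and T47D-PA6 minus T47D-VC1 (y axis) of 93 interferon-stimulated genes, in log2 units of the mean per line over 3 arrays. The shaded band is the range from -0.5 to 0.5 that the rule allows on the x axis and the dashed line the limit of 1. Most points lie to the right of the band, and the 3 members lie inside it near its right edge.

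Other genes tied to innate immunity met the rule outside that list, and they were named after their values were seen. STING1, the adaptor of cytosolic DNA sensing (TMEM173 on the array), had signals of 329, 330.4 and 304 in T47D-VC1, 281, 405 and 356 in T47D-PA5 and 691, 767 and 730.4 in T47D-PA6. SLC15A3, a peptide transporter of endolysosomes, had signals of 476, 464 and 428 in T47D-VC1, 525, 621 and 669.9 in T47D-PA5 and 1318, 1348 and 1331 in T47D-PA6, with a mean T47D-PA6 log2 signal of 10.38 ± 0.02 (SD, n = 3). TMEM140 was at 48.0, 59.2 and 58.7 in T47D-PA6, above all other arrays. The B2M and IRF1 promoters are shown because they hold a motif of interferon signaling, while the RIGI promoter in the table holds neither of the motifs named next. Capitals mark the core of the interferon-stimulated response element, GAAANNGAAA, at 2 overlapping places in B2M (GRCh38.p14, chr15:44711267-44711566, plus strand), and the STAT dimer core, TTCNNNGAA, at 1 place in IRF1 (chr5:132490724-132491023, minus strand).
B2M: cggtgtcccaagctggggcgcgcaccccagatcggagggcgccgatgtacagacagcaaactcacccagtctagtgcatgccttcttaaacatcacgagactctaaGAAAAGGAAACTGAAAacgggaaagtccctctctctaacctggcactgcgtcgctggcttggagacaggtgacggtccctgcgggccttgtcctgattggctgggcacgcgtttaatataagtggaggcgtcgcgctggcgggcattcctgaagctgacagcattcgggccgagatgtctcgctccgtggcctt
IRF1: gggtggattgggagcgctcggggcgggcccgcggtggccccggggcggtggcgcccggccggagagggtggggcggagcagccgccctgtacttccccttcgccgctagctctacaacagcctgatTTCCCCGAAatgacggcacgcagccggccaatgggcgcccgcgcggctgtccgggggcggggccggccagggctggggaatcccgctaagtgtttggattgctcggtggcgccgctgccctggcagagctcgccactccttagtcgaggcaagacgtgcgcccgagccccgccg

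The promoter table held 117 promoters of 76 members, some genes having several. Both strands were searched except for the TATA box. The interferon element core was in 5.98% of members' promoters and 2.87% of the 16368 promoters of genes considered, among members in B2M, EMP3, GNAI1, PAGE2B, PATL2 and TMEM140, and the STAT core in 8.55% and 6.40%. The TATA box, TATAAA, was in 14 of 117 members' promoters and 4.41% of those of genes considered, and in 7.33% of all promoters in the table. The cAMP response element, TGACGTCA, was in 0 of 117 and in 2.65% of promoters of genes considered. Cores of the AP-1 site (TGANTCA, 5.98% and 5.30%), the E-box (CACGTG, 9.40% and 9.29%), the TEAD site (GGAATG, 14 of 117 and 11.7%) and the GC box (GGGCGG, 59.8% and 64.0%) were also counted, and no member's promoter in the table held the estrogen response element core, GGTCANNNTGACC. Matches of different motifs were counted apart and may overlap, and these shares are descriptions without a test.

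Stress and signaling genes were present singly. DDIT3, a transcription factor of the unfolded protein response, had signals of 1759.7, 968 and 951 in T47D-VC1, 943, 843 and 849.9 in T47D-PA5 and 2357, 2932 and 2877 in T47D-PA6, with a high first T47D-VC1 array. Among the other 18 listed stress genes 6 passed against T47D-PA5, with a median of 0.53 on the log2 scale over the 18, and 2 against T47D-VC1, with a median of 0.23, all as higher. These included CEBPB, 0.70 over T47D-VC1 and 0.97 over T47D-PA5 (adjusted p = 0.0174 and 0.00575 by limma), and HERPUD1, 0.56 and 0.68 (adjusted p = 0.0419 and 0.0217). HRK, a proapoptotic BH3-only protein, had signals of 213, 125 and 128 in T47D-VC1, 239, 171 and 173 in T47D-PA5 and 558, 595 and 638 in T47D-PA6. PHLDA1, which ERK signaling induces, had signals of 205, 183 and 155 in T47D-VC1, 143, 168 and 133 in T47D-PA5 and 343, 371 and 409 in T47D-PA6.

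KYNU, kynureninase of the tryptophan breakdown pathway, had signals of 439, 525 and 533 in T47D-VC1, 851, 457 and 527 in T47D-PA5 and 846, 1909.8 and 1885 in T47D-PA6, and it overlapped because the first T47D-PA5 and T47D-PA6 arrays were nearly equal. A second probe 10287 bases upstream, named only by its clone and described as kynureninase, separated the lines by 3.37 and 3.11. Of the 7 other enzymes of that pathway tested, on a list drawn up after the values were seen, 1 passed against T47D-VC1 and 2 against T47D-PA5, all as lower. KYAT3, a kynurenine aminotransferase, was 0.63 lower than in T47D-VC1 and 0.53 lower than in T47D-PA5 (adjusted p = 0.00808 and 0.0158 by limma).

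Receptors and their effectors included ADRB1, the beta-1 adrenergic receptor, with signals of 58.1, 43.3 and 36.9 in T47D-VC1, 25.1, 38.2 and 34.9 in T47D-PA5 and 127, 101 and 95.4 in T47D-PA6. GNAI1, an inhibitory G protein subunit, was at 67.1, 108 and 91.0 in T47D-PA6 and from 18.9 to 28.9 elsewhere. PDE8B, a cAMP phosphodiesterase, was at 37.1, 125 and 138 in T47D-PA6, and its first array overlapped with the other lines. The phosphatase inhibitor PPP1R1B was at 87.5, 139.8 and 125, and the receptor phosphatase PTPRH overlapped, at 93.6, 252 and 269.7. PTPRH was at 73.9, 44.9 and 41.6 in T47D-VC1 and at 26.3, 113 and 122 in T47D-PA5. Its T47D-PA5 signal was thus lower among first replicates and higher among later ones, and only the means of these 2 lines lay close. AHRR, the repressor of the aryl hydrocarbon receptor, was at 42.7, 49.7 and 51.3, with 40.5 on the first T47D-VC1 array. CYP2S1, a cytochrome P450 that this receptor induces, was at 101, 365 and 371 and overlapped. TFF1, a classic estrogen receptor target, had signals of 1238, 1414 and 1415 in T47D-VC1, 1970.0, 1659 and 1696 in T47D-PA5 and 5303, 3533 and 3817 in T47D-PA6, with no overlap. Of 27 further estrogen receptor targets 3 were higher and 1 lower than in T47D-VC1 and 1 passed against T47D-PA5, as lower. TUBB2B, a neuronal beta-tubulin, had signals of 473, 209.6 and 225 in T47D-VC1, 467, 275 and 302 in T47D-PA5 and 1427, 1563 and 1570.4 in T47D-PA6. DLX2, a homeobox factor, was at 297, 149 and 153 and ELOVL4, an elongase of very long fatty acids, at 21.3, 39.3 and 35.8 in T47D-PA6. FJX1 exceeded the others by 1.09 and 1.23 with an SD of 0.04 (n = 3) in T47D-PA6. Its T47D-PA5 arrays spread more, at 8389, 3667 and 3336.5 (SD 0.73, n = 3). The margin over T47D-PA5 was 0.42 among first replicates and 1.64 among the later ones.

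Among 287 solute carriers and ABC transporters considered 6 were members, 2.09%. They included SLC4A7, which imports sodium and bicarbonate, the related SLC4A5, the betaine carrier SLC6A12, the mitochondrial SLC25A41 and SLC15A3. The differences of these 5 over T47D-VC1 ran from 1.24 to 1.72, and those over T47D-PA5 from 1.11 to 1.55. No member was found among 546 zinc finger genes, 82 glycosylation enzymes, 73 ion channels other than potassium channels (which the rule left out), 67 histones, 59 cadherins, protocadherins and claudins, 23 hypoxia genes or 24 cAMP and immediate early genes that were considered, and nothing is read from this for short lists, since 0.798% of all genes considered were members.

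The scan runs gave different sizes. Among first replicates 144 of the 152 members were brighter in T47D-PA6 than in both other lines and 75 were so by at least 1 on the log2 scale, with a median margin of 1.34 against T47D-VC1 and of 1.32 against T47D-PA5. Among replicates 2 and 3 the counts were 149 and 130 and the medians 1.75 and 1.71. Within the 1 slide that held later arrays of all 3 lines they were 147 and 126, and 57 members exceeded both lines by 1 in both runs. The same arrays chose the members, so the rule largely fixed these directions. No such counts were made over all genes, and nothing is read from them. In 8 members the T47D-PA6 array was not above both others among first replicates: LCN2, KYNU, MT1X, SLC6A12, SPIB, STMN3, THSD7A and POM121L1P. In another 8 the later arrays differed by less than 0.5, of which TNFRSF10A, a death receptor for TRAIL, and CFAP91 have a symbol. The T47D-PA6 signals of TNFRSF10A were 1146, 211 and 214, against 119 to 187 on the other 6 arrays, so its mean rests on the first array.

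**Figure D5:**
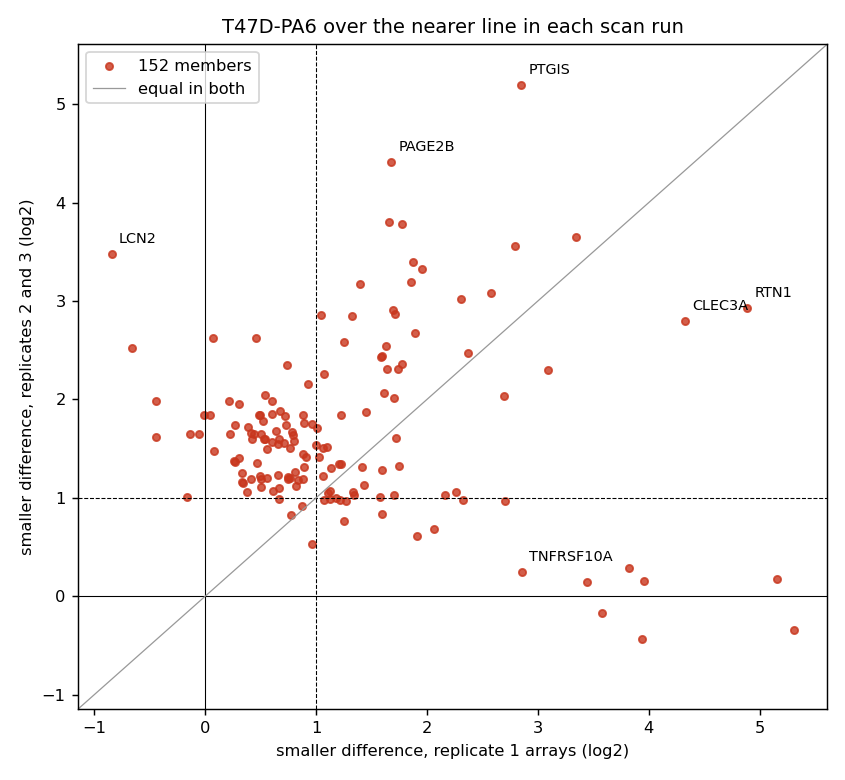
The smaller of T47D-PA6 minus T47D-VC1 and T47D-PA6 minus T47D-PA5 in log2 units, among first replicates (x axis, 1 array per line) and among replicates 2 and 3 (y axis, mean of 2 arrays per line), 1 point per member. Solid lines mark 0, dashed lines 1 and the gray diagonal equal values. Most of the 152 points lie above the diagonal, 8 lie left of 0 and 8 lie right of 2 with a y value under 0.5.

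The rule did not use the difference between later and earlier replicates of the same line, of which each line holds 1 earlier and 2 later arrays. This difference is still read from the same arrays, and the T47D-PA6 signals that chose the members enter it. It is therefore not independent of the choice, and the counts and p-values of members below are a description. In a limma fit with line and run as terms, 21 of the 152 members passed, 13.8%, all as higher in the later replicates, while 7.42% of all 20099 genes tested passed as higher and 6.71% as lower. The median change was 0.21 on the log2 scale over the members and 0.02 over all genes. WT1-AS had the smallest adjusted p, 0.00873, with later arrays 1.27 ± 0.16 higher (SE). PYGL, liver glycogen phosphorylase, was 1.02 ± 0.14 higher (adjusted p = 0.0106), NYNRIN 0.68 ± 0.11 (adjusted p = 0.0133), B2M 0.64 ± 0.16 (adjusted p = 0.0418) and TGFBI 0.50 ± 0.13 (adjusted p = 0.0403, all by limma). Of the 21, 13 were well above background on all 9 arrays. The others, among them PAGE2 and SP5, which were so on no T47D-VC1 or T47D-PA5 array, rest in part on signals near background. By line, the median member was 0.56 higher on the later arrays in T47D-PA6, 0.17 in T47D-PA5 and 0.02 in T47D-VC1, and 121 of the 152 had their lowest T47D-PA6 value on the first array, as did 48.5% of all genes considered. Without the first T47D-PA6 array the counts were 9 higher and 9 lower. Whether the run changed the difference between lines for a given member was not tested.

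Of the 152 members 108 are protein-coding by RefSeq, 71.1%, beside 68.2% of all genes considered, 7 are long noncoding RNAs and 31 had no RefSeq match. A list of placeholder names (transcript, clone or locus numbers) held 32 members, 0.713% of its 4490 names considered. The clone-named probe described as kynureninase was not on that list. Among the members with a RefSeq match were small RNAs of the nucleolus and Cajal bodies, namely SNORA12, SNORD116-26, SCARNA12 and SCARNA22. The median GC content of the probes was 45.0% in members and in all genes considered. Of 59 other probes of 45 members, 19 read well above background on each T47D-PA6 array, 1 for each of 19 members. The rest fell short of that and are not counted here. This filter rests on T47D-PA6, where the members are high. No such count was made for other genes, so nothing is read from it. Of the 19 probes, 17 read T47D-PA6 higher than both other lines, 12 by at least 1, and 6 met all limits. The 2 that did not were those of ZDHHC8, a palmitoyltransferase, with differences of -0.07 and 0.06 where the member probe read 1.39 and 1.74, and of EMP3, a membrane protein, with -0.35 and 0.04 where it read 1.51 and 1.35. Different probes of these 2 genes disagree, and the reason was not tested. In WFDC2, IGFBP7, NOVA1 and HRK the second probe read T47D-PA6 at least 1 above both lines but missed the limit on T47D-PA5 minus T47D-VC1. That difference was -0.85, -0.63, 0.51 and 0.74, so membership of these genes depends on the probe, as for RIGI and HCP5. The second probes of CYP2S1 (-0.96) and MFAP3L (-0.77) missed the same limit.

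By position in hg19, 27 members had a member as their next neighbour, in 16 pairs. No such count was made for other genes, so nothing is read from it. Some pairs may be readings of the same locus and not separate genes. Unnamed transcripts lay 50 bases apart on chromosome 11, 132 on chromosome 14 and 932 on chromosome 7, and KYNU neighboured the clone-named probe described as kynureninase. The longest run lay on chromosome 16, where MT2A, MT1L, MT1E, MT1A, the MT1C pseudogene and MT1B followed each other from 56643332 to 56687007 with no other gene considered between them, and MT1X lay beyond at 56717962. PATL2 and B2M lay 49696 bases apart on chromosome 15, NYNRIN and CBLN3 7439 bases apart on chromosome 14, and CPVL and CHN2, a GTPase-activating protein for Rac, 448048 bases apart on chromosome 7. On chromosome 22, FAM83F neighboured a clone-named gene, and CIMAP1B (ODF3B on the array) and KLHDC7B lay on either side of an unnamed transcript. Chromosome 22 held 8 members among 499 genes considered (1.60%), chromosome 20 held 7 of 511 (1.37%), chromosome 1 held 7 of 1886 (0.371%), and chromosomes 13 and 18 held 0 of 321 and 0 of 263.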

How the data were processed

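Total RNA of 3 T47D lines was hybridised to 9 single-color Agilent SurePrint G3 human arrays, 3 per line. The labels give Feature Extraction 9.5.1.1, while the file headers name another version. Per the file headers, the scanner output deposited by the authors holds background-corrected processed signals, an intensity per spot, and the array design follows hg19. The authors quantile-normalized these signals in R, and the deposited series table holds the resulting intensities on a linear scale. The log2 values of that table correlated with quantile-normalized processed signals computed here with r = 1, across probes, on every array.

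Groups were taken from the sample titles. Control spots were left out, spots of a probe were averaged, and log2 intensities of 1 probe per gene name were averaged per line. The 160 members and the gene lists were chosen with earlier results of these data known, and the lists of metallothioneins, eicosanoid and kynurenine enzymes and BMP modulators, like the metal response motif, were added after values were seen. Genes named are the 20 with a symbol and the widest margin, the 10 with the highest T47D-PA6 mean, up to 6 per list, the 2 on either side of each limit and adjacent members. Any others were named after their values were seen.

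Tests across 20099 genes with signal on enough arrays used limma 3.58.1 in R 4.3.3 with Benjamini-Hochberg adjustment at 0.05 and were tested on simulated data. With 9 arrays and 6 residual degrees of freedom, the number of arrays limits the precision, and p-values measure the spread between arrays, which may be technical. Names were updated through RefSeq, where 114 of the 152 members described matched by accession, 5 by symbol and 2 by synonym, and 31 kept the name in the files. Promoters are those of RefSeq (GRCh38.p14). Members not well above background in a line have only a bound there. Alternatives covered normalization, background correction, filters, the probe rule, slide and replicate blocks, each run alone and each array left out. The values of 1 member are not reported here.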

Additional observations from a re-analysis of the deposited data

How the results depend on the processing

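Of the 152 genes, every one stayed higher in T47D-PA6 than in both other lines under the other normalizations tried. The same signals had chosen them for that direction, so nothing is read from this. Which genes met all limits depended on the processing. Normexp background correction with an offset of 50 gave 79 genes, 63 of them among the 152. Requiring signal well above background on all 9 arrays gave 106, with 99 of the 152, and no such filter gave 763, all 152 included. First replicates alone gave 764, of which 41 were among the 152, and replicates 2 and 3 alone gave 228, of which 85 were. Leaving out single spots marked as outliers, an alternative chosen after seeing the data, left 152 of 160. Leaving out 1 array gave between 141 and 299 genes and kept between 110 and 140 of the 152. The 299 came without the first T47D-PA6 array. The causes were not tested.

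Counts of genes that passed between lines moved likewise. With no filter on background they fell from 2015 to 1280 in T47D-PA6 over T47D-VC1, from 1950 to 1262 in T47D-PA6 over T47D-PA5, from 335 to 204 in T47D-PA5 over T47D-VC1 and from 2840 to 1428 between later and earlier replicates. The unpaired test that the methods name, adjusted, gave 432, 789 and 39 for the 3 line comparisons. Slide as a random block gave 772 in T47D-PA5 over T47D-VC1 and 8240 between later and earlier replicates. Leaving out 1 array gave ranges from 683 to 2766, from 713 to 2961, from 100 to 592 and from 1031 to 4102, and from 70 to 84 for interferon-stimulated genes, where 82 passed with all arrays. The lowest line counts came without the third T47D-PA6 array (683 and 713) or the third T47D-PA5 array (100).

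The shared replicate numbers were not taken as pairs. The correlation of deviations from the line means was positive in all 9 same-number pairs, from 0.0994 to 0.3379, but 1 missed the limit of 0.1, and 4 of 9 arrays correlated best with their own number. Among first replicates, which share a slide and a scan run, it was 0.21, 0.34 and 0.27. A replicate block gave 2615, 2412 and 489 genes for the 3 line comparisons and 83 interferon-stimulated genes. Probes near background limit the lowest differences.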
